A study of Arabidopsis thaliana with 14 samples.

Results

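Plastids of flowering plants keep a small circular genome that encodes part of the photosynthetic machinery, part of the plastid ribosome, an RNA polymerase, and the rRNAs and tRNAs with which those messages are translated. The rest of the plastid proteins are encoded in the nucleus and imported. Plastid transcripts are made and translated inside the organelle and do not pass through the nuclear export route, and as a rule lack the long stable poly(A) tail of nuclear messages.

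Plastid genes were all those whose identifier begins with ATCG in the deposited gene tables, 133 of 37336 genes. They were measured in poly(A)+ RNA of immature flower buds (inflorescence, stages 1 to 12) of Arabidopsis thaliana in the Columbia background, grown in days of 16 hours of light. The 2 genotypes were wild type and aly1-2, a mutant of ALY1, which encodes a nuclear RNA-binding adaptor of mRNA export. Each genotype was sampled as total extract (3 libraries), nuclear fraction (2 libraries) and cytoplasmic fraction (2 libraries), 14 libraries in all. The labels do not say whether replicates were separate plants, and the p-values therefore cover only the spread among these libraries, be it technical or not. In these bulk samples, fewer plastids per bud and less RNA per plastid cannot be told apart.

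The libraries held 7.23 to 12.74 M gene counts (M for 1e6), of which 0.505 to 1.78 M fell on plastid genes. ALY1 itself (AT5G59950) had 107, 111 and 119 reads per 1e6 counts in the wild-type total extract and 14.1, 20.6 and 17.1 in that of aly1-2, and each mutant library was also below each wild-type library in the nuclear and the cytoplasmic fraction. The cytoplasmic libraries differed from the others in nuclear-encoded rRNA, which took 49.4% to 60.5% of their counts against 3.64% to 6.92% in the total and nuclear libraries. Fold changes below rest on scaling by trimmed means (TMM), and with scale factors taken from nuclear genes other than rRNA the cytoplasmic against total count of plastid members was 89 in wild type and 92 in aly1-2, against 89 and 95 by TMM. Wild-type nuclear replicate 1 stood apart from the other nuclear libraries in many plastid members, as described with the nuclear comparison.

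All 133 plastid IDs had reads in some library and 118 had reads in every library. They were grouped by locus number into 11 classes: 15 of photosystem II, 7 of photosystem I and its assembly, 6 of cytochrome b6f, 6 of ATP synthase, 12 of the NDH complex, 15 and 11 of the small and large ribosomal subunit, 4 of the plastid-encoded RNA polymerase, 8 rRNA, 37 tRNA, and 12 other proteins, the large subunit of Rubisco among them. The files and the reference annotation do not pair these IDs with gene names except for 6 that are named in annotation notes, so other members are given by ID with their class. In 11 pairs of IDs, the members of a pair held near-equal counts in each library with enough reads, within 25%. The plastid genome is known to carry an inverted repeat whose genes occur in 2 copies, and some values carry fractions, as when a read is shared among places. The members of such a pair, for example ATCG00950 with ATCG01180 and ATCG00920 with ATCG01210, are not separate observations. Counts of members below are counts of IDs and so include both IDs of a pair. With each of these 11 pairs counted once, the 133 IDs are 122 units, and the 8 rRNA IDs are 4. Pairs were found by their counts, so copies that differed by more than 25% still count as separate units. By number, ATCG00940 and ATCG01190 lie at mirrored places between the pairs ATCG00930 with ATCG01200 and ATCG00950 with ATCG01180. They did not meet the rule and may be such copies.

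Plastid transcripts were a larger part of the fractions than of the total extract. In wild-type total RNA they took 6.17, 5.27 and 6.77% of gene counts in the 3 libraries, and in aly1-2 total RNA 5.78, 5.01 and 5.97%. In the nuclear libraries they took 8.56 and 9.48% in wild type and 11.3 and 8.75% in aly1-2. In the cytoplasmic libraries they took 15.2 and 15.3% in wild type and 16.8 and 20.3% in aly1-2. The 3 kinds of library did not overlap: every cytoplasmic library was above every nuclear one, and every nuclear one above every total one. Over both genotypes the cytoplasmic mean exceeded the total mean by 11.0 percentage points (4 against 6 libraries) and the nuclear mean exceeded it by 3.68 (4 against 6). Each of these differences had an adjusted p of 0.0190 in an exact two-sided permutation test, adjusted over 48 class and fraction comparisons, and 0.00476 is the smallest raw p that this design can give. Nuclear against cytoplasmic (4 against 4) had a difference of -7.36 points and an adjusted p of 0.0549 in the same exact test, where 0.0286 is the smallest raw p possible. In total RNA the genotypes overlapped, with a mutant minus wild-type difference of -0.48 points (3 against 3, exact permutation p = 0.4, smallest possible 0.1).

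**Figure D1:**
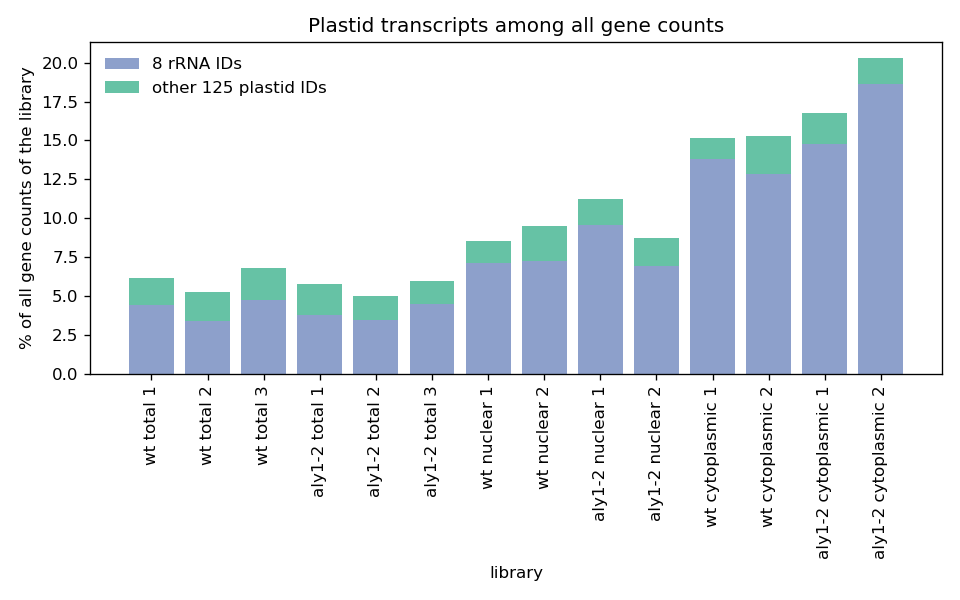
Percent of all gene counts on plastid genes in each of the 14 libraries (bars), split into the 8 rRNA IDs and the other 125 IDs. The cytoplasmic bars reach 15.2% to 20.3%, the nuclear ones 8.56% to 11.3% and the total ones 5.01% to 6.77%.

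Leaving out both the plastid rRNA IDs and the 4 nuclear rRNA genes, the nuclear and total libraries overlapped. The other 125 IDs took 1.68% to 2.27% of the remaining gene counts in the total libraries and 1.64% to 2.54% in the nuclear ones, a mean difference of 0.0854 points (4 against 6 libraries, exact permutation test, adjusted p = 0.693). In the cytoplasmic libraries they took 5.26% to 6.50%, above every other library. There the nuclear rRNA genes left out held 49.4% to 60.5% of all gene counts, against 3.64% to 6.92% in the other libraries. The share with the plastid rRNA IDs alone left out is not given here.

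The plastid rRNAs, which build the organelle's bacterial-type ribosome, were the bulk of plastid counts everywhere. The share of the 8 rRNA IDs within plastid counts was 72.0, 64.3 and 70.0% in wild-type total RNA and 65.2, 68.6 and 75.1% in aly1-2 total RNA. It was 83.1 and 76.7% and 84.9 and 79.3% in the nuclear libraries of wild type and aly1-2, and 91.1 and 84.0% and 88.2 and 91.9% in the cytoplasmic ones. Both fractions lay above every total library (adjusted p = 0.0190 each, exact permutation test, 4 against 6), while nuclear and cytoplasmic libraries overlapped.

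The pair ATCG00950 and ATCG01180 was the largest, and ATCG00950 held more counts than any other plastid ID in all 14 libraries. Its share of plastid counts was 29.1, 24.4, 28.3, 27.4, 26.7 and 28.1% in the 6 total libraries, 33.4, 30.1, 33.7 and 32.5% in the 4 nuclear ones and 24.7, 25.8, 27.7 and 31.8% in the 4 cytoplasmic ones, so the nuclear shares lay above every total library and the cytoplasmic ones overlapped them. The pair ATCG00920 and ATCG01210 did not keep this proportion. ATCG00920 took 6.91, 7.81, 6.71, 5.24, 7.63 and 9.48% in the total libraries and 8.18, 8.25, 8.79 and 7.13% in the nuclear ones, but 20.8, 16.2, 16.4 and 14.1% in the cytoplasmic ones, all 4 of which lay above the rest. By level, scaled counts per 1e6 counts (CPM) after TMM over all 14 libraries, ATCG00920 rose in the cytoplasmic libraries in wild type (log2 fold change 4.61, SE 0.37, adjusted p = 3.51e-06) and in aly1-2 (log2 fold change 4.76, SE 0.37, adjusted p = 2.61e-06), where the values of ATCG00950 were 3.09 and 3.89 on the log2 scale. Adjusted p-values for single genes are from edgeR's quasi-likelihood test with Benjamini-Hochberg adjustment over all genes tested.

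The smaller rRNA pairs diverged further. ATCG00970, at 6.83, 9.74, 7.59, 3.66, 3.62 and 8.31 CPM in the 6 total libraries, stood at 354, 270.0, 470.3 and 525 CPM in the cytoplasmic ones (log2 fold change 5.27, SE 0.35, adjusted p = 7.81e-07 in wild type). ATCG00960 was low throughout, at 2.31 to 3.62 CPM in total RNA, 10.4 to 15.9 CPM in nuclear RNA and 2.39 to 15.6 CPM in cytoplasmic RNA, where the libraries scattered. It was higher in the nuclear than in the total libraries of aly1-2 (log2 fold change 2.08, SE 0.46, adjusted p = 0.0156), a call lost without total replicate 1 or 2 or either nuclear replicate of aly1-2 (adjusted p = 0.0580 to 0.114). Its lowest cytoplasmic value, in wild-type replicate 1, lay inside the total range.

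**Figure D2:**
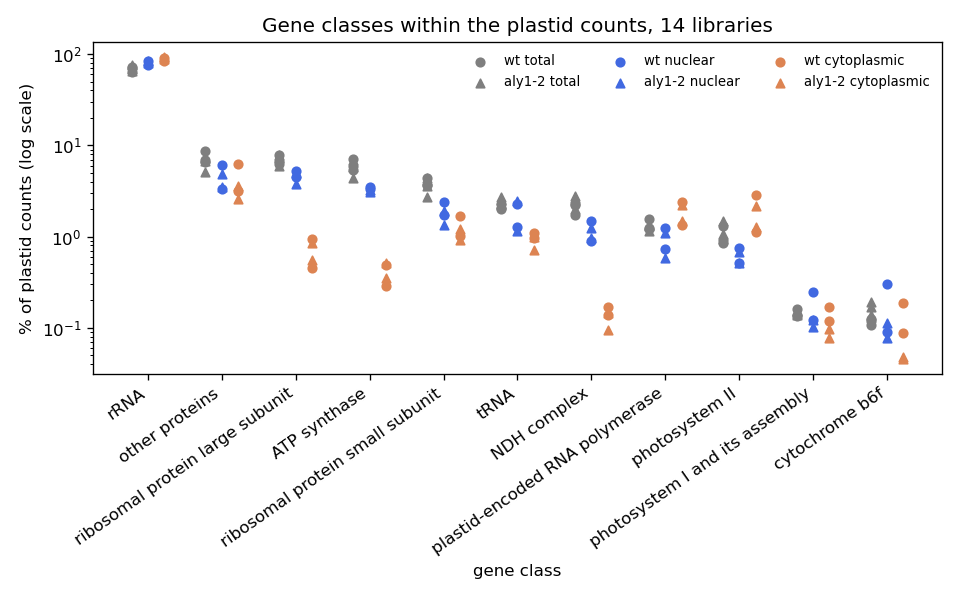
Share of plastid counts (%, log scale) taken by each of the 11 gene classes in each library, with circles for wild type and triangles for aly1-2, coloured by fraction. ATP synthase, NDH complex and large ribosomal subunit classes are lowest in the cytoplasmic libraries, and the rRNA class is lowest in the total libraries.

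Within plastid counts, several protein-coding classes took smaller shares in the fractions than in total RNA, in a denominator of which the rRNA IDs are the larger part and in which they took more in the fractions. ATP synthase, the rotary enzyme of the thylakoid that makes ATP, took 4.39 to 7.15% of plastid counts in total RNA, 3.06 to 3.50% in nuclear RNA and 0.291 to 0.513% in cytoplasmic RNA. The NDH complex, which returns electrons to the plastoquinone pool, took 1.73 to 2.81%, 0.895 to 1.50% and 0.0950 to 0.168% in the same order. Proteins of the large ribosomal subunit took 5.89 to 7.86%, 3.77 to 5.29% and 0.458 to 0.942%. In each of these 3 classes the 3 kinds of library did not overlap. The cytoplasmic shares were lower than the total shares in all 3, with an adjusted p of 0.0190 each (exact permutation test, 4 against 6 libraries). Small-subunit proteins took 2.74 to 4.40% in total, 1.35 to 2.39% in nuclear and 0.918 to 1.68% in cytoplasmic RNA, with both fractions below total (adjusted p = 0.0190 each, same exact test). In nuclear against total RNA, 1 class passed upward and 6 downward, and none passed without wild-type total replicate 3 or without aly1-2 total replicate 2.

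With the rRNA IDs taken out of the denominator, the cytoplasmic difference from total still passed in 3 of these 4 classes and the nuclear one in 1. ATP synthase then took a mean of 19.2% of the other plastid counts in total RNA, 17.7% in nuclear and 3.74% in cytoplasmic RNA, and passed for cytoplasmic against total (adjusted p = 0.0233, exact permutation test, 4 against 6) but not for nuclear against total (adjusted p = 0.367). The NDH complex took 7.43%, 6.04% and 1.29% in the same order (adjusted p = 0.0898 for nuclear and 0.0233 for cytoplasmic against total, exact test). Large-subunit proteins took 22.7%, 24.6% and 6.29%, with the nuclear mean now above the total one (adjusted p = 0.0662 for nuclear and 0.0233 for cytoplasmic against total, exact test). Small-subunit proteins took 12.1%, 9.68% and 10.9%, and here the nuclear difference stayed (adjusted p = 0.0233, exact test) while the cytoplasmic one did not pass (adjusted p = 0.0898).

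As summed shares, photosystem II, the complex that splits water, and the RNA polymerase class went another way. Photosystem II took 0.846 to 1.48% of plastid counts in total RNA, 0.511 to 0.756% in nuclear RNA and 1.13 to 2.84% in cytoplasmic RNA. Its nuclear libraries were below every total library (adjusted p = 0.0429, exact permutation test, 4 against 6), whereas the cytoplasmic range overlapped the total one (adjusted p = 0.0615). Without rRNA IDs in the denominator it took a mean of 3.55% in total, 3.25% in nuclear and 16.2% in cytoplasmic RNA, so that the nuclear difference no longer passed (adjusted p = 0.367, exact test) and the cytoplasmic one did, upward (adjusted p = 0.0233, exact test). The polymerase class took 1.16 to 1.56%, 0.578 to 1.25% and 1.33 to 2.37% in the same order, with an adjusted p of 0.0538 for nuclear against total and 0.0549 for cytoplasmic against total (exact permutation test). Without rRNA IDs its means were 4.24%, 4.70% and 16.7%, and the cytoplasmic one passed as higher than total (adjusted p = 0.0233, exact test). Gene by gene and relative to all plastid counts, only ATCG00740 of this class was called higher in cytoplasmic than in total RNA. Its log2 fold change was 1.61 in wild type and 1.56 in aly1-2. The other 3 polymerase members were called lower in both genotypes, so the class rise is not shared by its members. The tRNA class took 2.02 to 2.73% in total and 0.705 to 1.10% in cytoplasmic RNA (adjusted p = 0.0190, exact test), a fall that turned without rRNA IDs (7.61% against 8.70%, adjusted p = 0.367, exact test) and with whole-count members alone (a difference of 27.9 points). Photosystem I stood at 0.0768 to 0.250% and cytochrome b6f at 0.0457 to 0.300% over the 14 libraries, and the ranges of their fractions overlapped. Wild-type nuclear replicate 1 held 0.250% and 0.300% of these classes, where the other nuclear libraries stood at 0.101% to 0.123% and 0.0776% to 0.113%. Without rRNA IDs photosystem I took a mean of 0.476% in total, 0.816% in nuclear and 1.10% in cytoplasmic RNA, and both fractions passed as higher than total (adjusted p = 0.0419 and 0.0233, exact test). Wild-type nuclear replicate 1 held 1.48% there, against 0.525% to 0.671% in the other nuclear libraries, and the nuclear range overlapped the total one, which reached 0.563%. Wild-type cytoplasmic replicate 1 held 1.90%, against 0.735% to 0.946% in the other cytoplasmic libraries.

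Gene by gene, 126 of the 133 members passed the filter on low counts in the fits that include the fractions, the 7 others being 6 tRNA IDs and 1 of photosystem II. In wild type, 72 members were higher and 17 lower in cytoplasmic than in total RNA, against 36.9% of all tested genes called in either direction and 18.1% called higher. In aly1-2 the counts were 83 higher and 12 lower, against 34.4% of all tested genes called and 17.3% called higher. The median log2 fold change over members was 1.64 in wild type and 2.04 in aly1-2, where that over all tested genes was -0.01 and -0.03. The same members made up most calls, with 68 higher and 11 lower in both genotypes. With library sizes taken from plastid counts alone, that is as shares within the plastid transcripts, the split turned to 31 higher and 67 lower in wild type and 22 higher and 73 lower in aly1-2, while the median over all tested genes moved to -3.20 and -3.75. By TMM and with each near-equal pair counted once, 68 of 115 units were higher and 15 lower in wild type, and 77 higher and 10 lower in aly1-2. Relative to plastid counts, 0.534% of all genes were called higher and 94% lower in wild type, and 0.327% and 96.4% in aly1-2.

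**Figure D3:**
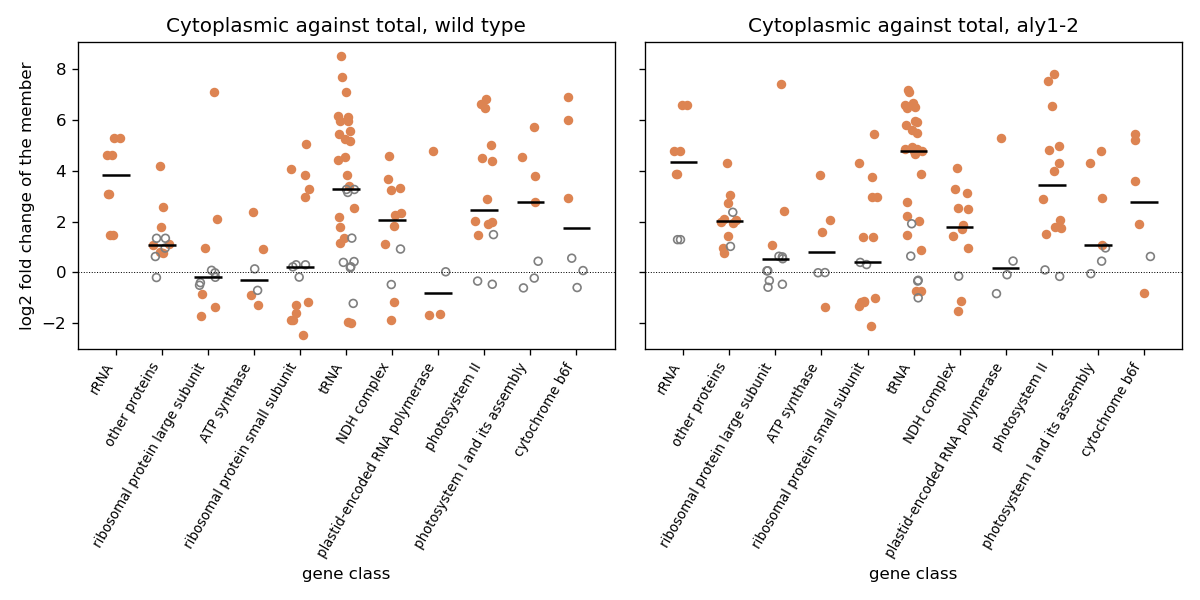
log2 fold change between cytoplasmic and total RNA of each tested plastid ID (points) by gene class, in wild type and aly1-2, with filled points for an adjusted p under 0.05 and a bar at the class median. Within most classes members spread from below 0 to well above it, and the rRNA members lie above 0.

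Among photosystem II members, 11 of 14 tested rose in the cytoplasm of wild type and 12 of 14 in aly1-2, with none lower. ATCG00070 stood at 0.836, 1.45 and 1.42 CPM in wild-type total RNA and 1.11, 0.725 and 1.53 CPM in aly1-2 total RNA, but at 78.3 and 206 CPM and 212 and 288 CPM in the cytoplasmic libraries. It had the largest rise of the mutant comparison (log2 fold change 7.79, SE 0.52, adjusted p = 5.07e-07), and in wild type its log2 fold change was 6.83. ATCG00080 rose from 7.59, 7.31, 8.04, 9.20, 5.44 and 10.3 CPM in the total libraries to 445 and 1069 CPM in the wild-type and 1679 and 1391 CPM in the aly1-2 cytoplasm (log2 fold change 7.53, SE 0.38, adjusted p = 7.43e-08 in aly1-2). ATCG00220, the photosystem II member with most counts, stood at 173, 276, 237, 346, 204 and 199 CPM in total RNA and 3123, 6301, 5721 and 4193 CPM in cytoplasmic RNA (log2 fold change 4.36, SE 0.52, adjusted p = 5.47e-05 in wild type). None of these members overlapped between total and cytoplasmic libraries. ATCG00070 and ATCG00080 were named for large fold changes, a choice that favours members without overlap. The share of members without overlap is not given here.

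ATCG00300, also of photosystem II, went from 20.6 to 35.6 CPM in total RNA to 527 to 988 CPM in the cytoplasm. In the nuclear libraries it stood at 30.4, 39.3, 29.9 and 34.7 CPM, close to its total values. Photosystem I, which passes electrons to ferredoxin, had 4 of 7 members higher in the cytoplasm in each genotype and none lower. ATCG00360 rose from 4.05 to 6.89 CPM to 483, 145, 133 and 138 CPM, and wild-type cytoplasmic replicate 1 was by far the highest. ATCG00350 stayed at 15.3 to 23.2 CPM in total and 4.78 to 35.1 CPM in cytoplasmic RNA and did not pass the test in either genotype.

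Cytochrome b6f, the complex between the photosystems, had 3 of 6 members higher in the cytoplasm in wild type, and 4 higher and 1 lower in aly1-2. ATCG00210 stood at 2.07 to 5.54 CPM in total RNA and at 674, 219, 136 and 164 CPM in the cytoplasm (log2 fold change 6.90, SE 0.86, adjusted p = 7.1e-05 in wild type). ATCG00730 stood at 28.8, 22.3 and 35.1 CPM in the total RNA of wild type, with 35.4, 45.7 and 49.7 CPM in that of aly1-2, against 19.9, 18.2, 25.6 and 24.3 CPM in the cytoplasm, and fell in aly1-2 (log2 fold change -0.80, SE 0.24, adjusted p = 0.0179).

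ATP synthase members moved both ways. In wild type 2 of 6 were higher and 2 lower in the cytoplasm, and in aly1-2 3 were higher and 1 lower. ATCG00470, which carried most of the class, stood at 1569.5, 1975 and 2093 CPM in wild-type total RNA and 822 and 1203 CPM in wild-type cytoplasm (log2 fold change -0.89, SE 0.27, adjusted p = 0.018). In aly1-2 it stood at 2041, 1332 and 1342 CPM in total and 1727 and 1401 CPM in cytoplasmic RNA and did not pass (log2 fold change -0.01, SE 0.26, adjusted p = 0.986). ATCG00150 fell in both genotypes, from 282 to 361 CPM in total to 153, 121, 129 and 127 CPM in cytoplasmic RNA (-1.28 and -1.36 on the log2 scale), whereas ATCG00480 rose from 72.5 to 104 CPM to 133, 153, 233 and 286 CPM.

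Of 12 NDH members, 8 were higher and 2 lower in the wild-type cytoplasm and 9 higher and 2 lower in aly1-2. The 2 members with most counts were the lower ones. ATCG00430 stood at 512, 608 and 730.0 CPM in the total RNA of wild type, with 783, 666 and 618 CPM in that of aly1-2, against 165 and 176 CPM and 301 and 178 CPM in the cytoplasm (log2 fold change -1.85, SE 0.47, adjusted p = 0.00763 in wild type). An annotation note gives this ID as photosystem II reaction center protein G, while its locus number places it in the NDH class here. In aly1-2 its fall lost the call without cytoplasmic replicate 2 (log2 fold change -1.26, adjusted p = 0.141). ATCG00440 stood at 88.8 to 159.5 CPM in total and 38.5 to 79.2 CPM in cytoplasmic RNA and fell in both genotypes. ATCG01010, at 4.74 to 15.7 CPM in total RNA, rose to 287, 82.9, 91.8 and 128 CPM.

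The ribosomal protein members also divided. Of 15 small-subunit members, 5 were higher and 6 lower in the wild-type cytoplasm and 7 higher and 6 lower in aly1-2, and of 11 large-subunit members 3 were higher and 3 lower in wild type and 3 higher and none lower in aly1-2. ATCG00640 rose most, from 3.13, 2.90, 3.99, 1.83, 4.23 and 6.78 CPM in total RNA to 366, 554, 778 and 673 CPM in cytoplasmic RNA (log2 fold change 7.10, SE 0.53, adjusted p = 1.85e-06 in wild type). ATCG00160 fell, from 76.8, 72.2 and 96.7 CPM in wild-type total RNA to 14.6 and 15.1 CPM in the cytoplasm (log2 fold change -2.46, SE 0.29, adjusted p = 4.25e-05), and from 75.0, 64.6 and 56.7 CPM to 29.8 and 21.6 CPM in aly1-2 (log2 fold change -1.34, SE 0.27, adjusted p = 0.00196). ATCG00065 was the lowest call of aly1-2, at 6.64, 5.32 and 5.72 CPM in total and 1.40 and 1.35 CPM in cytoplasmic RNA (log2 fold change -2.09, SE 0.54, adjusted p = 0.00927), and lost the call without cytoplasmic replicate 1 (adjusted p = 0.0666). ATCG01310, named ribosomal protein L2 in an annotation note, stood at 412, 410.1 and 508 CPM in wild-type total and 209 and 278 CPM in wild-type cytoplasm and fell there (log2 fold change -0.86, SE 0.21, adjusted p = 0.00574). ATCG00790, the large-subunit member with the most counts, stood at 769.5 to 936 CPM in total and 447 to 962 CPM in cytoplasmic RNA, and passed in neither genotype.

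The 4 members of the plastid-encoded RNA polymerase, a bacterial-type enzyme that transcribes photosynthesis genes, did not move together. ATCG00740 stood at 206, 227, 237, 248, 198 and 199 CPM in total RNA, against 5089, 7221, 8967 and 7922 CPM in cytoplasmic RNA (log2 fold change 4.78, SE 0.35, adjusted p = 1.85e-06 in wild type). Of the other 3, ATCG00190 and ATCG00170 fell in wild type and ATCG00180 did not pass, and none of the 3 passed in aly1-2. ATCG00190 stood at 65.4, 72.2 and 82.7 CPM in wild-type total, 218 and 149.8 CPM in nuclear and 16.2 and 30.7 CPM in cytoplasmic RNA, a fall from total to cytoplasm (log2 fold change -1.64, SE 0.27, adjusted p = 0.00042). In aly1-2 it stood at 57.3, 57.9 and 64.0 CPM in total and 57.1 and 55.0 CPM in cytoplasmic RNA and did not pass (log2 fold change -0.09, SE 0.25, adjusted p = 0.802), and the interaction of genotype with the nuclear to cytoplasmic difference did not pass (log2 fold change -1.77, SE 0.49, adjusted p = 1). ATCG00170 stood at 142 to 212 CPM in total and 58.4 to 101 CPM in cytoplasmic RNA.

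Among tRNA IDs, 20 of 31 tested were higher and 2 lower in the wild-type cytoplasm, and 24 higher and 2 lower in aly1-2. ATCG00620 went from 19.3, 16.7, 23.0, 27.8, 14.9 and 20.4 CPM in the total libraries to 1075, 1666, 2170.3 and 1899 CPM in the cytoplasmic ones (log2 fold change 6.12, SE 0.36, adjusted p = 2.9e-07 in wild type). ATCG00460 had the highest wild-type log2 fold change of all members (log2 fold change 8.50, SE 1.11, adjusted p = 9.3e-05), from 1.88, 0.132 and 0.965 CPM to 576 and 144 CPM, where replicate 1 was the higher. ATCG00240 rose from 7.94, 0.790 and 2.57 CPM to 1061 and 507 CPM and ATCG00230 from 1.18, 0.329 and 0.386 CPM to 94.8 and 80.0 CPM in wild type. The tRNA IDs ATCG00980 and ATCG01150, a near-equal pair, fell, ATCG00980 from 23.8, 28.4 and 32.4 CPM to 9.55 and 4.76 CPM (3.99-fold lower, adjusted p = 0.000168). Relative to plastid counts, 12 tRNA IDs were called higher and 11 lower in wild type, and 9 higher and 11 lower in aly1-2. ATCG00400, the tRNA ID with the most counts, was among the lower ones (log2 fold change -4.38 in wild type and -4.75 in aly1-2).

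Of the 12 other proteins, 7 rose in the cytoplasm in wild type and 10 in aly1-2, with none lower. ATCG01130 held most of the class, at 2360.2, 2695, 2746, 2406, 1966 and 1905 CPM in total RNA, 1865, 4427, 3183 and 3529 CPM in nuclear RNA and 11905, 18834, 14203 and 13558 CPM in cytoplasmic RNA (log2 fold change 2.56, SE 0.32, adjusted p = 7.63e-05 in wild type). ATCG00670, the plastid-encoded proteolytic subunit of the Clp protease, stood at 44.3 to 76.4 CPM in total RNA and 175, 122, 91.1 and 88.5 CPM in cytoplasmic RNA, with a log2 fold change of 1.13 in wild type and 0.78 in aly1-2.

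**Figure D4:**
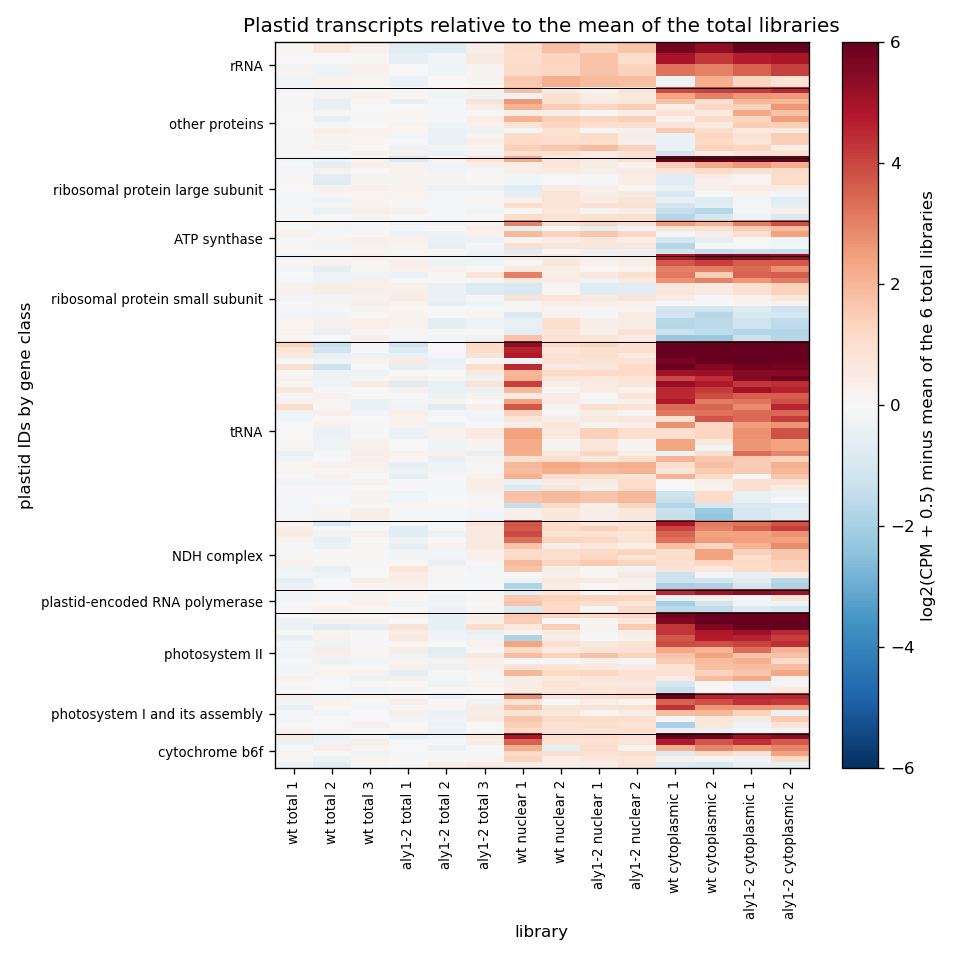
Level of the 126 tested plastid IDs (rows, by gene class, each class ordered by its cytoplasmic level) in the 14 libraries (columns), as log2(CPM + 0.5) minus the mean of the 6 total libraries, with colours limited at 6 on either side. The cytoplasmic columns hold strong rises and weaker falls side by side within most classes, and wild-type nuclear replicate 1 has rises that the other nuclear columns lack.

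Nuclear libraries were next compared with total ones. In wild type 43 members were higher and none lower, against 4.01% of all tested genes called and 3.71% called higher. In aly1-2 26 were higher and none lower, against 5.1% called and 4.8% called higher. The count in wild type was 8 without nuclear replicate 1 and 12 to 22 without any 1 of the 3 total libraries. In aly1-2 it was 11 and 7 without total replicates 1 and 2, and 9 and 6 without nuclear replicates 1 and 2. With each near-equal pair counted once, 40 of 115 units were higher in wild type and 20 in aly1-2. Wild-type nuclear replicate 1 held 21 members at more than 3 times the level of each of the other 3 nuclear libraries, where no other nuclear library held any. Of those 21, 20 were among the members called higher in wild-type cytoplasmic than in total RNA, which were 72 of the 126 tested. ATCG00240, for example, stood at 124 and 6.68 CPM in the 2 wild-type and 7.42 and 5.30 CPM in the 2 aly1-2 nuclear libraries. ATCG00230 stood at 30.4 and 1.56 CPM and 1.70 and 1.19 CPM, which gave it the largest log2 fold change over total RNA in wild type (log2 fold change 4.64, SE 0.87, adjusted p = 0.00712). Without that library the fold change of ATCG00230 was 1.30 on the log2 scale (adjusted p = 0.615), and those of ATCG00600 and ATCG00460, next in size with 4.29 and 4.18, were 1.85 and 0.81 (adjusted p = 0.475 and 0.951).

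Across the nuclear libraries of aly1-2, which showed no such gap, the 8 rRNA IDs, which form 4 near-equal pairs, were higher than in total RNA. The tRNA IDs ATCG01190 and ATCG00940, which may be copies of 1 gene, had the largest rises that passed. ATCG01190 went from 2.07, 2.60 and 3.30 CPM in total to 14.7 and 15.2 CPM in nuclear RNA (log2 fold change 2.49, SE 0.30, adjusted p = 0.000461). ATCG00940 went from 3.27, 3.44 and 4.60 CPM to 17.1 and 18.4 CPM (log2 fold change 2.23, SE 0.27, adjusted p = 0.000461). Their wild-type nuclear values of 13.9 and 17.6 CPM and 15.9 and 19.7 CPM lay in the same range. Of the ribosomal proteins, ATCG01310 (L2) and ATCG00830 were higher in the nuclear than in the total libraries of both genotypes, ATCG01310 at 925, 784, 838 and 848 CPM in nuclear against 410.1 to 508 CPM in total RNA. ATCG00520 of the photosystem I class stood at 12.2, 10.2, 9.81 and 11.3 CPM in nuclear against 3.81 to 6.06 CPM in total RNA and rose in wild type (log2 fold change 0.99, SE 0.25, adjusted p = 0.0385). The wild-type calls of ATCG01310, ATCG00830 and ATCG00520 were lost without nuclear replicate 1 (adjusted p = 0.0906, 0.168 and 0.236), with log2 fold changes of 0.82, 0.83 and 0.86 against 0.95, 0.96 and 0.99 with it. They were lost as well without wild-type total replicate 1 or 2. The aly1-2 calls of ATCG01310 and ATCG00830 were lost without total replicate 1 or 2 or either nuclear replicate of aly1-2 (adjusted p = 0.0529 to 0.251). As shares within plastid counts, the nuclear comparison gave 23 higher and 8 lower in wild type and 2 higher and 31 lower in aly1-2. Of the 23, 16 were among the 21 members that stood apart in wild-type nuclear replicate 1, and without that library, a setting added after the data were seen, edgeR called no member and no other gene in wild type (10 members at an unadjusted p under 0.05) and 2 members higher and 30 lower in aly1-2. With all libraries on this scale, the median over all genes moved to -0.82 and -1.28 and 33.9% and 63.1% of all genes were called lower, 0.861% and 0.304% higher.

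Set directly against each other, the nuclear libraries of wild type had 16 members higher and 40 lower than the cytoplasmic ones, against 19.1% of all genes called, 11.1% higher and 8.03% lower. Those of aly1-2 had 18 higher and 52 lower, against 18.9% of all genes called, 11.1% higher and 7.8% lower. With each near-equal pair counted once, the counts were 14 higher and 37 lower of 115 units in wild type and 15 and 48 in aly1-2. Of the IDs, 13 higher and 38 lower were shared by both genotypes. Without aly1-2 cytoplasmic replicate 2 the split in aly1-2 was 1 higher and 40 lower. ATCG00160 of the small ribosomal subunit led the nuclear side in wild type, at 240.5 and 134 CPM against 14.6 and 15.1 CPM (log2 fold change 3.58, SE 0.37, adjusted p = 0.00017), followed by ATCG00190 of the polymerase (log2 fold change 2.90, SE 0.37, adjusted p = 0.00037). In aly1-2 ATCG00065 led, at 7.26 and 11.1 CPM against 1.40 and 1.35 CPM (log2 fold change 2.73, SE 0.72, adjusted p = 0.02). Next came the tRNA pair ATCG00930 and ATCG01200. The call of ATCG00065 was lost without nuclear replicate 2 or either cytoplasmic replicate of aly1-2 (adjusted p = 0.111, 0.0917 and 0.0725), and those of the tRNA pair were lost without either cytoplasmic replicate (adjusted p = 0.0864 to 0.152). The cytoplasmic side was led by ATCG00070, at 4.04 and 1.10 CPM in the nucleus and 78.3 and 206 CPM in the cytoplasm of wild type (log2 fold change -5.87, SE 0.61, adjusted p = 0.00017). The aly1-2 values were 1.31 and 1.92 CPM in the nucleus against 212 and 288 CPM in the cytoplasm. With library sizes from plastid counts the split was 72 nuclear-higher and 16 nuclear-lower members in wild type and 58 and 22 in aly1-2, while the median over all genes moved to 2.39 and 2.53 and 80.6% and 84.4% of all genes were called nuclear-higher, 0.205% and 0.31% nuclear-lower.

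Mitochondrial genes, the other organelle's transcripts, were lower in the cytoplasmic libraries more often than higher. Of 75 tested, 7 were higher and 34 lower in wild-type cytoplasmic than in total RNA, and 6 higher and 25 lower in aly1-2. Of all tested genes, 18.1% were called higher and 18.8% lower in wild type, and 17.3% and 17.1% in aly1-2. The median log2 fold change of the mitochondrial genes was -1.30 and -1.06, where the plastid median was 1.64 and 2.04. The difference between the organelles was not tested.

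The genotype comparison asked whether loss of ALY1 shifts plastid transcripts. In total RNA, 107 members passed the filter, those that did not being mostly tRNA IDs (18), and none was called, against 0.475% of all genes called, with 7 members at an unadjusted p under 0.05 (6.54%, against 14.6% of all genes), a median log2 fold change of -0.03, and no member called by DESeq2. Without aly1-2 total replicate 1, 1 member was called higher and 8 lower. The share of all genes called in that fit is not given here, so this count is no evidence of a plastid shift. The smallest p belonged to ATCG00550 of photosystem II, which stood at 14.8, 12.6 and 13.6 CPM in the 3 wild-type libraries against 18.5, 18.8 and 19.1 CPM in the mutant ones (log2 fold change 0.45, SE 0.10, adjusted p = 0.117). Its genotypes did not overlap, nor did those of ATCG00730 of cytochrome b6f, at 28.8, 22.3 and 35.1 CPM and 35.4, 45.7 and 49.7 CPM (log2 fold change 0.59, SE 0.18, adjusted p = 0.197). Both were picked for the smallest p among the 107 members, a choice that favours genes without overlap. Neither was called, and the share of members without overlap is not given here, so the gap is no evidence of a shift. As class shares within plastid counts, tRNA took 2.02, 2.30 and 2.05% in wild type and 2.49, 2.73 and 2.31% in aly1-2, and cytochrome b6f 0.125, 0.107 and 0.120% and 0.138, 0.194 and 0.169%, both higher in each mutant library than in each wild-type library. With 3 against 3 libraries the exact permutation p was 0.1 for each, the smallest it can be, and 0.16 after adjustment. Without rRNA IDs in the denominator the genotypes overlapped in both classes (adjusted p = 0.314 for tRNA and 0.367 for cytochrome b6f, exact test). The NDH complex, higher in aly1-2, and other proteins, lower in aly1-2, then did not overlap (adjusted p = 0.191 each, exact test).

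In the nuclear libraries none of 126 members was called between genotypes, against 0.0381% of all genes, with a median log2 fold change of -0.12. At an unadjusted p under 0.05 there were 18 members (14.3%, against 2.26% of all genes), of which 16 were among the 21 that stood apart in wild-type nuclear replicate 1, and without that library there were 3 (2.38%, against 0.794%). The smallest p fell on ATCG00230 (log2 fold change -3.39, SE 0.88, adjusted p = 0.828) and ATCG00240 (log2 fold change -3.31, SE 0.88, adjusted p = 0.924), the tRNA IDs that were high in wild-type nuclear replicate 1. Without that library their log2 fold changes were -0.09 and -0.06. DESeq2 called no member in this comparison either. In the cytoplasmic libraries none of 126 was called by edgeR or DESeq2, against 0.0143% of all genes, with 18 at an unadjusted p under 0.05 (14.3%, against 9.09% of all genes) and a median of 0.40. The smallest p fell on ATCG00660, named ribosomal protein L20, which stood at 5.04 and 3.89 CPM in the wild-type libraries against 12.6 and 17.2 CPM in the mutant ones (log2 fold change 1.69, SE 0.44, adjusted p = 0.369). The tRNA ID ATCG00100 followed, with wild-type values of 34.2 and 46.7 CPM and mutant values of 101 and 122 CPM (log2 fold change 1.42, SE 0.41, adjusted p = 0.422). Neither DESeq2 nor edgeR called a member in the test of whether the nuclear to cytoplasmic difference itself changed with genotype, where 0% of all genes were called by edgeR. In that test 22 members had an unadjusted p under 0.05 (17.5%, against 3.36% of all genes), and 10 without wild-type nuclear replicate 1 (7.94%, against 1.68%). Whether the cytoplasmic to total difference changed with genotype was not tested, so a call in 1 genotype and not in the other, as for ATCG00470, is not shown to be a difference between them.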

How the data were processed

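The values are expected counts (estimated counts) per gene, deposited by the authors for 14 libraries and neither scaled nor pooled. The submitters' processing notes list TAIR10 as the build, STAR 2.5.1b, and Subread 1.6.1 with its featureCounts. Between 42.1% and 56.4% of plastid values per library were whole, and the counting options and the handling of reads with several places are not given in the sources used here. The libraries are directional, per the labels' protocols, but the strand setting of the counting was not relied on, so antisense and overlapping genes are less certain. Counts were rounded to whole numbers, while the planned design assumed whole counts.

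Members were all ATCG IDs. Members, classes and tests were chosen with earlier results of these data known. No ATCG ID matched the TAIR10.1 reference by identifier, so classes rest on lists of locus numbers. Class sizes equalled the reference's for photosystems, cytochrome b6f, ATP synthase, NDH, polymerase, large ribosomal subunit and tRNA, and differed for rRNA (8 against 7) and the small subunit (15 against 14). The named members were the 3 with the largest mean share of plastid counts in each class (all for rRNA and polymerase), in each comparison the passing members with the 3 highest and the 3 lowest log2 fold changes (or the 2 with smallest p), and the member with most counts in each library. Not all members that met these rules are described above.

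Genes were tested with edgeR 4.0.16 (R 4.3.3; quasi-likelihood F-test, filterByExpr with minimum count 10 and minimum total 15, TMM, Benjamini-Hochberg, threshold 0.05). Separate fits used the 6 total libraries (20431 genes), the 8 fraction libraries (20971; genotype and nuclear against cytoplasmic comparisons) and all 14 (21728; comparisons with total). SE is the log2 fold change divided by the square root of F. The scripts were tested on simulated data. Alternatives were DESeq2 1.42.0, its size factors, no filter, scaling by nuclear genes without rRNA, library sizes from plastid counts, a replicate block, and each library left out. Libraries of a group differed by 5.78 to 41.3 chi-square per degree of freedom, so no pair looked like 1 library deposited again. Levels of different genes are not compared per length. No gene sequence is printed, as the IDs are not paired with sequences.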

Additional observations from a re-analysis of the deposited data

How the results depend on the processing

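Plastid members called in cytoplasmic against total RNA ranged from 79 to 93 in wild type and from 78 to 97 in aly1-2 when each library was left out, and nuclear against cytoplasmic from 38 to 65 and from 41 to 75. Nuclear against total ranged from 8 to 51 in wild type and from 6 to 27 in aly1-2. Genotype calls ranged from 0 to 9 in total, 0 to 5 in nuclear and 0 to 1 in cytoplasmic RNA, and from 0 to 1 in the interaction. Without the filter the calls were 12 for genotype in nuclear RNA, 4 in cytoplasmic RNA, 3 in the interaction and 65 for nuclear against total in wild type. With library sizes from plastid counts there were 3 genotype calls in nuclear RNA and 88 for nuclear against cytoplasmic in wild type. Those 3 genotype calls were lower in aly1-2, and all 3 were among the 21 members that stood apart in wild-type nuclear replicate 1. The shares of all genes called between genotypes under these alternatives are not given here, so the genotype counts are no evidence of a plastid shift. Where a fraction group was left with 1 library, that library was assumed to vary like the other groups. The cause of these changes was not tested. With a replicate block the counts were 90 and 91 for cytoplasmic against total, 59 and 73 for nuclear against cytoplasmic, and 43 and 28 for nuclear against total, in wild type and aly1-2. The labels do not say that numbers mark a pair, and the correlations of same-numbered libraries ran from -0.235 to 0.261.

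Only named members were checked one by one for reversal. Relative to plastid counts, 3 named members reversed in nuclear against total of aly1-2, none of them called. They were ATCG01310 at -0.39, ATCG00830 at -0.37 and ATCG01040 at -0.32 on the log2 scale. Members not named turned as well. All 11 large-subunit members were above 0 by TMM (lowest 0.015), but relative to plastid counts their median was -0.86 and 6 were called lower. The 4 polymerase members were likewise above 0 by TMM (lowest 0.36), and 1 was called lower relative to plastid counts. On that scale and without wild-type nuclear replicate 1, an alternative added after the data were seen, 0 members were called in nuclear against total of wild type, where ATCG00460 (-0.19), ATCG01310 (-0.21), ATCG00830 (-0.19) and ATCG00520 (-0.19) also reversed, and the same 3 reversed in aly1-2.

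The plastid share difference was 0.0854 points for nuclear against total without the plastid rRNA IDs and the nuclear rRNA genes. Within wild type it was 2.95 points and within aly1-2 4.41 points for nuclear against total, and 9.15 and 12.9 for cytoplasmic against total, where 2 against 3 libraries cannot pass. Leaving out each library, the differences ranged from -7.94 to -6.22 (nuclear against cytoplasmic), 3.10 to 3.998 (nuclear against total), 9.90 to 11.6 (cytoplasmic against total) and -0.88 to -0.13 (genotype). The number of classes past the threshold in nuclear against total was 7, but 2 with rRNA IDs left out, 0 with whole-count members alone, and 0 to 7 with each library left out. In cytoplasmic against total it was 7, and 3 with whole-count members alone and 6 to 8 with each library left out.

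Among class shares, those that reversed without rRNA IDs were large-subunit proteins (1.91 points) and other proteins (0.866) in nuclear against total, and other proteins (12.0) and tRNA (1.09) in cytoplasmic against total, because their denominator changed. In cytoplasmic against total, other proteins passed in opposite directions. They were lower with rRNA IDs (-2.95 points, adjusted p = 0.0305, exact permutation test) and higher without them (adjusted p = 0.0233, same test). With whole-count members alone, photosystem II in nuclear against total (0.53), tRNA in cytoplasmic against total (27.9), and cytochrome b6f (-1.31) and tRNA (-0.455) between genotypes reversed. These rest on 12 members.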
